A study of Homo sapiens with 16 samples.

Results

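The data described here are the response to doxycycline (Dox) that 3 hairpin lines of one breast cancer cell line had in common. All 6 arrays from Dox-treated hairpin cells were set against all 6 arrays from untreated hairpin cells, 12 of the 16 arrays of the series, with the line as a block. A gene was taken as shared where it passed the test over the 3 lines together and its mean difference had the same sign in each line, and 1990 of the 9402 genes and unnamed probes tested did so. The sign condition uses the same values as the test, so it describes these genes and adds no evidence.

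The cells were T47D-MTVL, a human luminal breast cancer line with an integrated luciferase reporter under a mammary tumour virus promoter. All 3 lines carried a Dox-responsive KRAB repressor with a red fluorescent protein and a lentiviral hairpin vector with a green one. Each was sorted for both colours after 3 days of Dox and then expanded without it. Ctrl carried a random hairpin, sh120 one that targets H1.4, a linker histone, and sh225 one that targets several H1 variants. Each line was compared without Dox and with Dox at 2.5 µg/mL for 6 days, in 2 replicate arrays per group. Treated cells were passaged at day 3 and moved to serum-free medium at day 4 to arrest growth. The labels do not say whether the untreated cells of these lines were also moved to serum-free medium, so an effect of Dox and an effect of serum withdrawal cannot be told apart here. They also do not say that the 2 replicates were separate cultures, and the spread behind each p-value may be technical. Each line was generated only once.

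Doxycycline is a tetracycline. In these vectors it releases the Tet repressor fused to KRAB from its operators, which lets the hairpin be transcribed. Tetracyclines also bind the bacterial type of ribosome and slow protein synthesis in mitochondria, and they chelate divalent metal ions, so Dox can act on human cells that carry no hairpin at all. Removal of serum withdraws growth factors and hormones and typically halts breast cancer cells before DNA replication. The Ctrl line, whose hairpin has no intended target, can show such effects without a designed knockdown.

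Values are normalized log2 probe intensities from Illumina bead arrays. Between 9477 and 10275 of 24530 probes were detected per array, replicate arrays correlated across genes at r = 0.989 to 0.993, and the median SE was 0.11 for a shared log2 fold change and 0.15 for that of a single line. The number of arrays limits the precision, and in bulk RNA fewer cells of a kind and less RNA per cell cannot be told apart. Raw array medians were at most 89.8 in Ctrl and sh120 and at least 97.65 in sh225. A constant offset of a line cancels in a comparison made within lines. Whether the difference bears on how the Dox effects differ between lines was not tested. In the array labels Ctrl and sh120 share a run of leading numbers, and sh225 belongs to another run. What these numbers stand for is not stated, and for sh225 line and run cannot be told apart. The probe for H1-4, the gene of H1.4, was not detected on any of the 12 arrays, so the knockdown in sh120 could not be checked. For H1-2, the gene of the variant H1.2, the log2 signals were 8.36 and 8.67 in Ctrl, 8.94 and 9.14 in sh120 and 8.84 and 8.81 in sh225 without Dox, and with Dox, in the same order, 9.06 and 9.06, 9.48 and 9.2, and 5.87 and 6.29. The Dox arrays of sh225 were the lowest, with a change of -2.75 (adjusted p = 5.41e-10, limma). Of 10 luminal markers 9 were detected on all 12 arrays. KRT5, KRT14 and MYLK of the basal list, 5 of 7 fibroblast markers, 4 of 5 leukocyte markers on the array and 5 of 5 endothelial markers were not detected on any.

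The shared response was broad and mostly modest in size. In the limma fit with a term for the line, 1053 genes were higher with Dox (11.2% of those tested) and 1050 were lower (11.2%) at an adjusted p under 0.05. The 1990 with the same sign in each line were 1008 higher (10.7% of all tested) and 982 lower (10.4%), with a median absolute log2 fold change of 0.41. Changes of at least 2-fold were few, 17 higher and 27 lower. Over all tested genes, 4141 (44%) had the same sign in each line whether or not they were called. In 1231 of the 1990, both Dox arrays lay beyond both untreated arrays in each line, 624 higher and 607 lower. That separation was seen in 1369 of all tested genes (14.6%). The genes nearest to the threshold were STOM and FAM210A, at adjusted p = 0.0499 and just inside it, and MSRA and RPS26, just outside at an adjusted p that rounds to 0.05. The count of 2103 called genes fell to 559 when the sh120 line was left out, to 1375 without the second untreated sh225 array and to 1379 without the second sh225 Dox array.

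Tested separately, the lines differed in how many genes passed. Ctrl had 249 called genes (2.65% of those tested), sh120 had 1437 (15.3%) and sh225 had 3247 (34.5%). Of the 1990 shared genes the largest effect was in sh225 for 1232, in sh120 for 548 and in Ctrl for 210, and the smallest was in Ctrl for 1243. An F-test of the differences among the 3 Dox effects called 1482 of all tested genes (15.8%), and 340 of the 1990 shared genes were among them (17.1%). Genes called with the same sign in each of the 3 lines numbered 43 higher (0.457% of those tested) and 47 lower (0.5%). All 90 were also called in the shared fit with arrays separated in each line, which adds no evidence, since the same values chose them. All signals of UGT2B7 in Ctrl and sh120 were below detection, so its calls there compare undetected signals, but it stays in the count of 90. That count rested on single arrays: it was 48 without the first untreated Ctrl array, 46 and 39 without the first or second Ctrl Dox array, 55 without the first untreated sh120 array and 59 without the first sh120 Dox array.

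A line that took no part in choosing the genes gave a separate reading. Genes called in sh120 and sh225 alone had the same sign in Ctrl for 849 of 1102 that rose (77%) and 891 of 1132 that fell (78.7%), where 51.2% and 48.8% of all genes had a positive or negative difference. Their median change in Ctrl was small, 0.17 for those that rose and -0.16 for those that fell, and 66 and 71 of them were called there. Genes called in Ctrl and sh225 kept their sign in sh120 for 245 of 260 (94.2%) and 273 of 299 (91.3%), with medians of 0.40 and -0.51. Genes called in Ctrl and sh120 did so in sh225 for 531 of 686 (77.4%) and 595 of 715 (83.2%). In sh225, however, 66 of these risers were called lower and 39 of these fallers were called higher, against 0 to 2 such reversals in the other left-out lines.

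**Figure D1:**
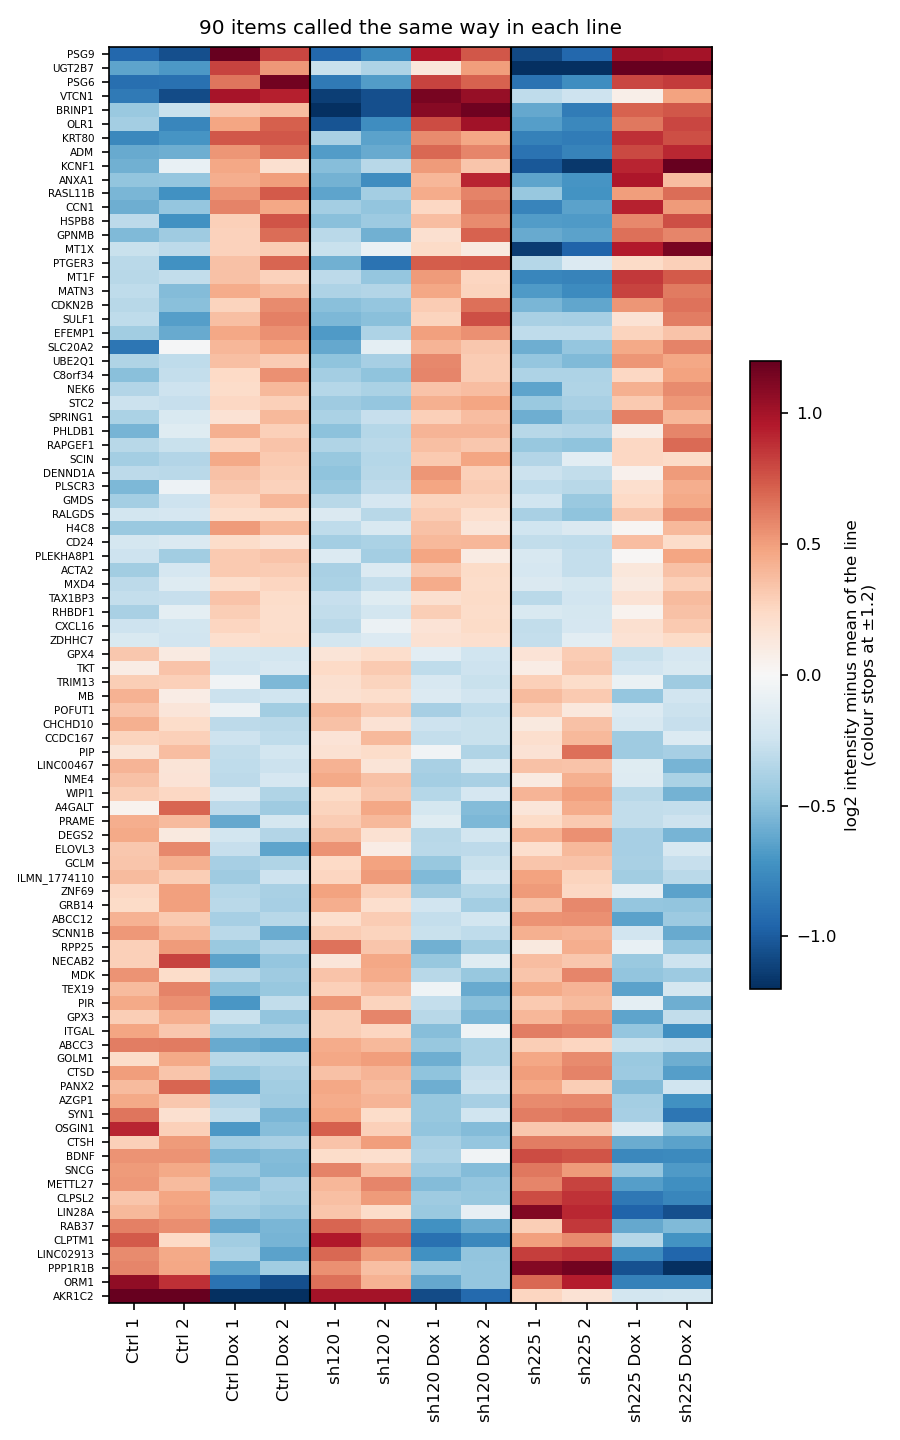
Log2 intensity on each of the 12 arrays, minus the mean of the 4 arrays of the same line, for the 90 genes and probes called with the same sign in each line (43 higher, 47 lower), ordered by shared effect. The choice of these genes fixes the change of colour between untreated and Dox arrays. What the plot adds is the size in each line, which for KCNF1 and MT1X is largest in sh225 and for AKR1C2 smallest there.

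PSG9, a pregnancy-specific glycoprotein that is normally secreted by the placenta, had the largest fitted effect among the rises, a rank that rests on untreated signals not above background. For PSG9, the log2 signals were 4.94 and 4.83 in Ctrl, 4.99 and 5.16 in sh120 and 4.95 and 5.09 in sh225 without Dox, and with Dox, in the same order, 7.08 and 6.69, 6.89 and 6.67, and 7.05 and 7.03. PSG9 was below detection on all 6 untreated arrays and detected on all 6 Dox arrays. Its rise was at least 2-fold over the lines together and at least 1.98-fold, 1.77-fold and 2.29-fold in Ctrl, sh120 and sh225 (shared adjusted p = 7.92e-07, limma with Benjamini-Hochberg adjustment). For such genes the detected group was set against the lowest signal that counted as detected on each array, or the probe's own signal where higher. The F-test did not call a difference between lines (adjusted p = 0.614). PSG6, a close paralog, had the same pattern of detection and a rise of at least 1.45-fold (adjusted p = 3.48e-06). The probe identity of PSG6 is uncertain, because the authors' normalized table holds a different series of values under it and gives a change of 0.02. Probes of this family may read each other's transcripts.

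OLR1 is the lectin-like receptor for oxidised low-density lipoprotein. For OLR1, the log2 signals were 7.01 and 6.64 in Ctrl, 6.88 and 7.17 in sh120 and 7.06 and 6.95 in sh225 without Dox, and with Dox, in the same order, 7.89 and 8.14, 8.7 and 8.93, and 8.35 and 8.52. Every Dox array lay above every untreated array, whichever the line, and the change was 1.47 ± 0.12 (adjusted p = 5.73e-06). ADM encodes adrenomedullin, a vasodilating peptide that is also a classical hypoxia-inducible gene. For ADM, the log2 signals were 8.75 and 8.77 in Ctrl, 9.15 and 9.21 in sh120 and 9.18 and 9.27 in sh225 without Dox, and with Dox, in the same order, 9.88 and 10.01, 10.51 and 10.4, and 10.86 and 10.97. No Dox array overlapped the untreated arrays, and the change was 1.38 ± 0.09 (adjusted p = 7.92e-07). ANXA1, a phospholipid-binding mediator that dampens inflammation, changed by 1.2 ± 0.12 (adjusted p = 3.18e-05) and was higher in the untreated sh225 line, at 8.06 and 7.99, than in untreated Ctrl, at 7.19 and 7.2. For CCN1, a secreted matricellular protein and a well-known target of the YAP and TEAD regulators, the log2 signals were 8.23 and 8.35 in Ctrl, 8.51 and 8.44 in sh120 and 8.24 and 8.39 in sh225 without Dox, and with Dox, in the same order, 9.41 and 9.28, 9.17 and 9.55, and 9.95 and 9.54. The groups did not overlap, and CCN1 changed by 1.13 ± 0.11 (adjusted p = 2.57e-05).

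KRT80, a type II keratin, changed by 1.39 ± 0.1, and a second probe of KRT80 by 1.08. Its 2 probes carry interchanged values in the authors' normalized table. HSPB8, a small heat shock protein that works with the autophagy partner BAG3, changed by 1.11 ± 0.11, and GPNMB, a transmembrane glycoprotein of lysosomes, by 1.03 ± 0.11. RASL11B, a small GTPase of the RAS family, changed by 1.16 ± 0.1. In Ctrl, sh120 and sh225 the fitted effects of RASL11B were 1.27, 1.04 and 1.18, and, since it was undetected in untreated sh225, the rise there was at least 1.81-fold. The F-test did not call the line effects of HSPB8, GPNMB and RASL11B different (adjusted p = 0.408, 0.528 and 0.795). VTCN1, the inhibitory T-cell ligand also known as B7-H4, behaved otherwise. For VTCN1, the log2 signals were 6.17 and 5.94 in Ctrl, 6.14 and 6.21 in sh120 and 5.75 and 5.8 in sh225 without Dox, and with Dox, in the same order, 8.01 and 7.95, 8.4 and 8.31, and 6.12 and 6.54. It rose in each line, by 1.93 in Ctrl, 2.18 in sh120 and 0.55 in sh225, and these effects differed (adjusted p = 0.000146, F-test in limma). It was below detection on the untreated sh225 arrays, so the rise there was at least 1.4-fold. The other 2 tested B7 ligands were not called.

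Some of the leading rises were uneven between lines. BRINP1, a retinoic-acid-inducible protein best known from neurons, was undetected on all untreated arrays and detected on all Dox arrays, with rises of at least 1.22-fold in Ctrl, 3.06-fold in sh120 and 1.62-fold in sh225 (shared adjusted p = 0.000369). KCNF1, a potassium channel subunit that is silent by itself, rose by 0.66, 0.84 and 2.17 in Ctrl, sh120 and sh225. For UGT2B7, which conjugates steroids and drugs with glucuronic acid, the log2 signals were 4.65 and 4.59 in Ctrl, 4.73 and 4.62 in sh120 and 4.65 and 4.55 in sh225 without Dox, and with Dox, in the same order, 6.09 and 5.8, 5.13 and 5.5, and 7.68 and 7.73. UGT2B7 was detected only on the 2 Dox arrays of sh225, where it rose at least 3.63-fold (adjusted p = 3.55e-09). In Ctrl and sh120 all its signals were below detection, so no fold is given. SAMD9, which restricts growth and poxviruses, rose at least 4-fold in sh225 and at least 1.19-fold in sh120 (adjusted p = 5.74e-08 and 0.0194). In Ctrl it was detected on 1 of the 2 Dox arrays and its change of 0.58 was not called (adjusted p = 0.143).

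**Figure D2:**
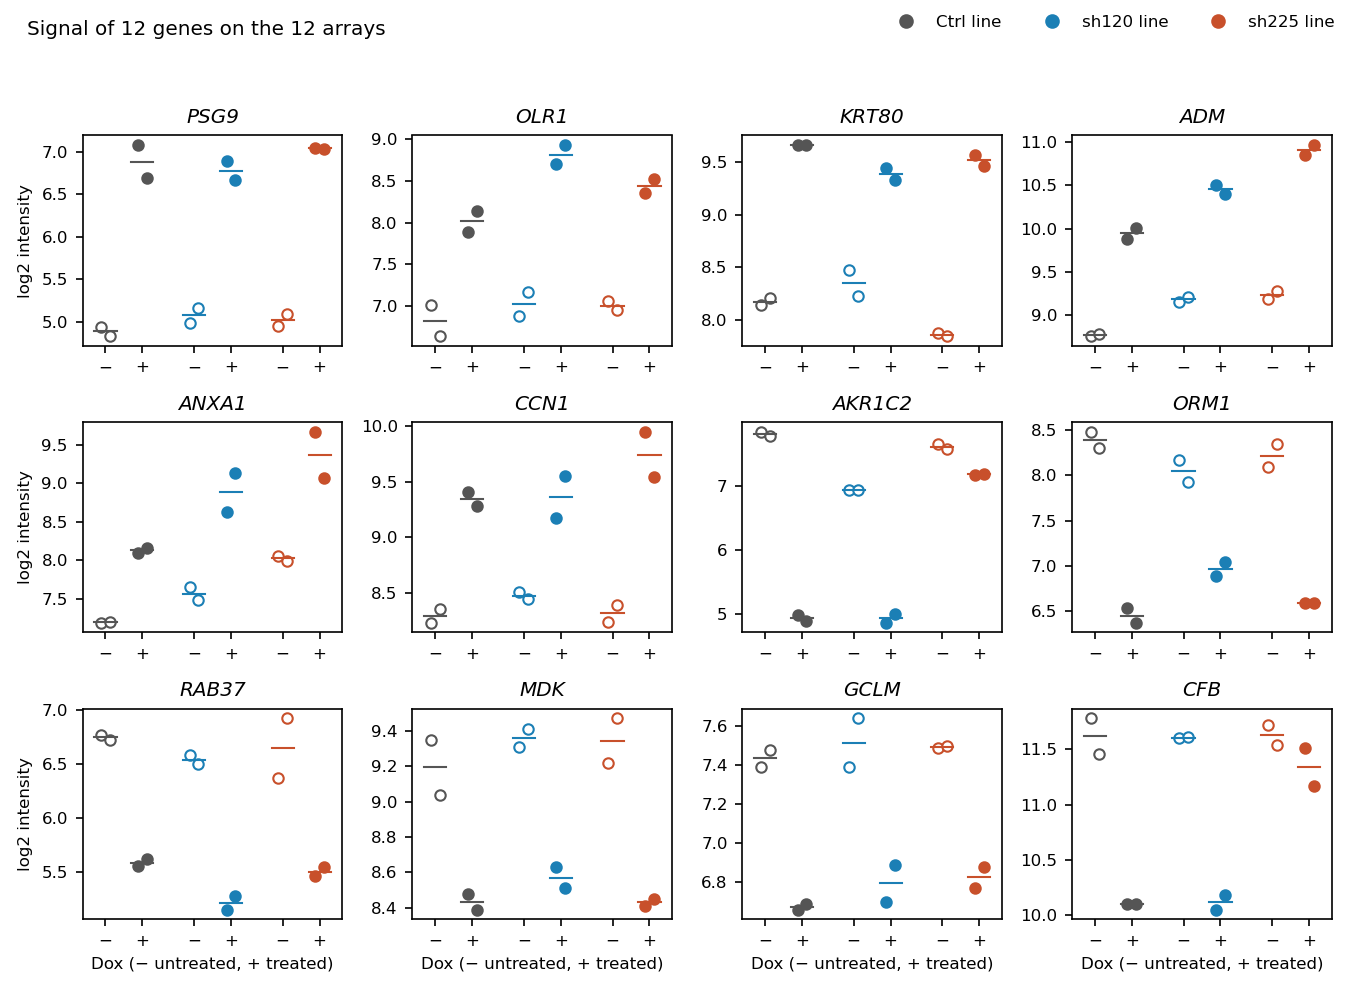
Log2 intensity of 12 genes on the 12 arrays, with open points for untreated and filled points for Dox arrays and a line at each mean of 2. The vertical axes differ between genes. PSG9, OLR1, KRT80, ADM, ORM1, RAB37, MDK and GCLM separate by Dox across all lines, while AKR1C2 and CFB fell least in the sh225 line.

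Among the falls, AKR1C2 is an aldo-keto reductase that inactivates progesterone and dihydrotestosterone. For AKR1C2, the log2 signals were 7.84 and 7.77 in Ctrl, 6.93 and 6.93 in sh120 and 7.65 and 7.57 in sh225 without Dox, and with Dox, in the same order, 4.98 and 4.89, 4.86 and 5, and 7.17 and 7.18. It dropped below detection with Dox in Ctrl, a fall of at least 3.41-fold, and in sh120, a fall of at least 1.88-fold, and in sh225 changed by only -0.44 (adjusted p = 0.0366). The lines differed (adjusted p = 1.11e-06, F-test). Its close paralogs may share the probe. ORM1, the acute phase protein orosomucoid, gave signals of 8.48 and 8.3 in Ctrl, 8.17 and 7.92 in sh120 and 8.09 and 8.34 in sh225 without Dox, and with Dox, in the same order, 6.53 and 6.37, 6.89 and 7.04, and 6.59 and 6.59. Every Dox array was below every untreated array, and the change was -1.55 ± 0.13 (adjusted p = 8.49e-06). ORM1 has a near-identical copy, ORM2, that the probe may also read.

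RAB37 is a small GTPase of secretory granules. Its signals were 6.77 and 6.72 in Ctrl, 6.58 and 6.5 in sh120 and 6.37 and 6.92 in sh225 without Dox, and with Dox, in the same order, 5.55 and 5.62, 5.15 and 5.28, and 5.46 and 5.54. RAB37 was detected on all 6 untreated arrays and on none of the Dox arrays, a fall of at least 1.58-fold (adjusted p = 1.97e-05). In the authors' normalized table RAB37 changed by -0.03 and was not called. LINC02913, a long non-coding RNA, changed by -1.31 ± 0.12 (adjusted p = 2.11e-05) and was undetected with Dox in sh120 and sh225. CLPTM1, a transmembrane protein of the endoplasmic reticulum, changed by -1.24 ± 0.13 (adjusted p = 4.29e-05), with line effects of -0.98, -1.68 and -1.06. CLPSL2, a colipase-like gene, changed by -1.11 ± 0.12 and in sh225 by -1.64. LIN28A, the RNA-binding protein that blocks maturation of let-7 microRNAs, fell in each line and most in sh225, with effects of -0.88, -0.55 and -2.02 in Ctrl, sh120 and sh225. PPP1R1B, the phosphatase inhibitor DARPP-32, changed by -1.4 ± 0.18. Its probe identity is uncertain, and in the authors' normalized table the change was 0.01.

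For several of the largest falls the Ctrl line did not pass the test by itself. KIF12, a kinesin, had log2 effects of -0.67 in Ctrl (adjusted p = 0.179), -1.68 in sh120 and -2.65 in sh225. RIPPLY3, a transcriptional corepressor, had effects of -0.37, -1 and -2.46 in the same order, and NMU, the peptide neuromedin U, effects of -0.29, -0.78 and -2.35. Both RIPPLY3 and NMU differed between lines (adjusted p = 2.27e-06 and 7.08e-06). TACC3, PIMREG and MASTL, which act in mitosis, had Ctrl effects of -0.22, -0.23 and -0.54 against -2.06, -2.17 and -1.67 in sh225. NMU, PIMREG and MASTL were below detection with Dox in sh225, falls of at least 3.78-fold, 4.19-fold and 1.61-fold there (adjusted p = 3.64e-09, 3.71e-09 and 1.26e-05).

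**Figure D3:**
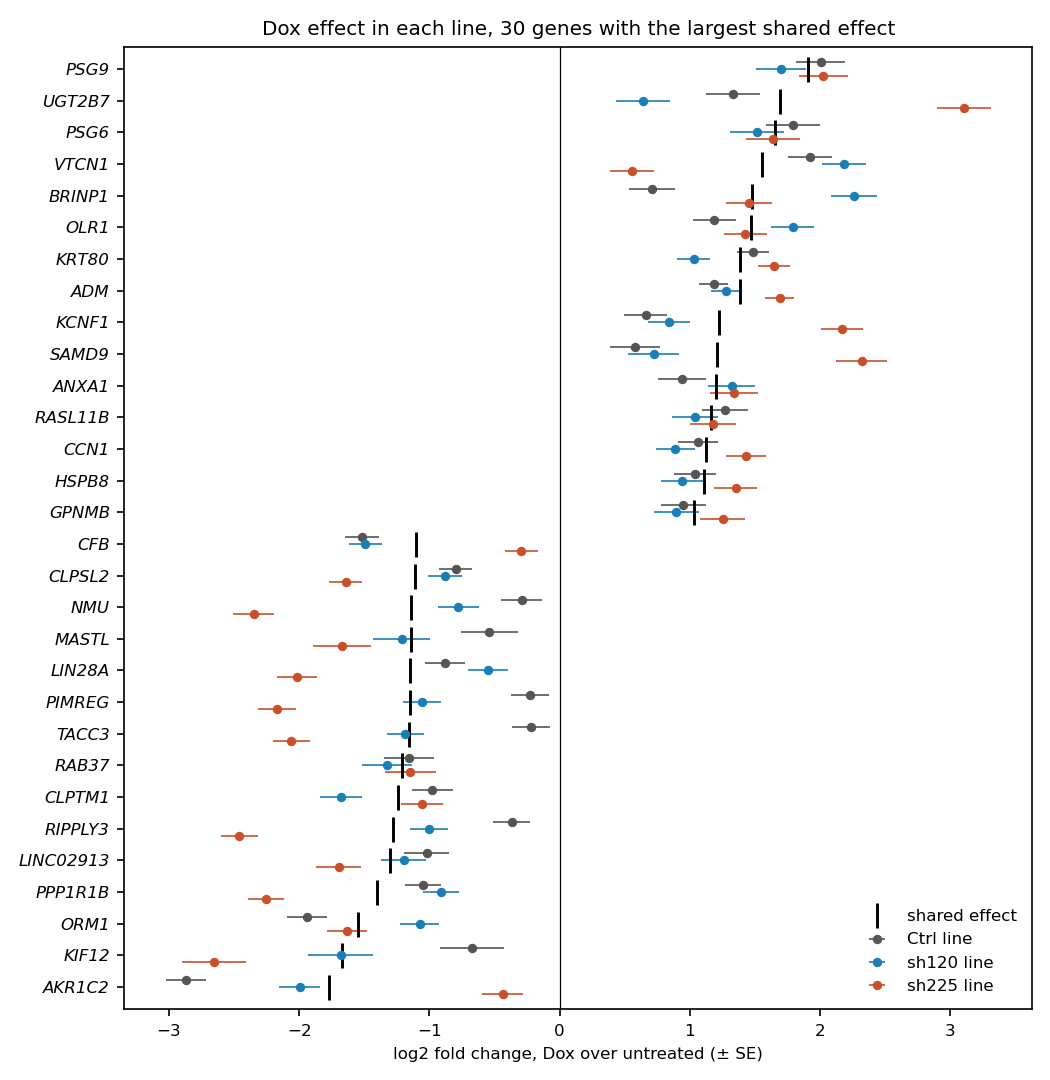
Log2 fold change of Dox over untreated, with its SE, in each line for the 15 largest shared rises and the 15 largest shared falls in which the arrays separated in each line. Black ticks mark the shared effect. PSG9, PSG6, UGT2B7, BRINP1 and SAMD9 were undetected on all untreated arrays, and RAB37 on all Dox arrays. VTCN1, RASL11B, AKR1C2, LINC02913, PIMREG, MASTL and NMU were undetected in at least 1 arm of a line. The effects of all these genes are there set against signals not above background. Of the 3 line effects of KCNF1 and of TACC3, the largest are those in sh225, at 2.17 and -2.06.

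The 10 genes of middling size among the 90 called in each line had mixed functions. Among the rises were EFEMP1, the matrix protein fibulin-3 (0.89 ± 0.08), SLC20A2, a phosphate transporter (0.89 ± 0.14), UBE2Q1, a ubiquitin-conjugating enzyme (0.85 ± 0.08), SULF1, which trims sulfate from heparan sulfate (0.93 ± 0.13), and C8orf34 (0.8 ± 0.1). For EFEMP1, the log2 signals were 11.02 and 10.83 in Ctrl, 11.01 and 11.32 in sh120 and 10.88 and 10.88 in sh225 without Dox, and with Dox, in the same order, 11.9 and 11.98, 12.18 and 12.24, and 11.45 and 11.53. Its untreated and Dox arrays did not overlap. Among the falls were MDK, the heparin-binding growth factor midkine (-0.82 ± 0.08), TEX19, a germline gene (-0.83 ± 0.12), PIR, the iron-containing protein pirin (-0.83 ± 0.11), GPX3, a secreted glutathione peroxidase (-0.85 ± 0.1), and NECAB2, a neuronal calcium-binding protein (-0.8 ± 0.12). For MDK, the log2 signals were 9.35 and 9.04 in Ctrl, 9.31 and 9.41 in sh120 and 9.22 and 9.47 in sh225 without Dox, and with Dox, in the same order, 8.48 and 8.39, 8.63 and 8.51, and 8.41 and 8.45. Its lowest untreated array stood above its highest Dox array, and its line effects ran only from -0.91 to -0.76. The F-test did not call any of these 10 genes (adjusted p from 0.106 for EFEMP1 to 0.875 for C8orf34).

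Other genes of this set were picked out after their values were seen. The lysosomal proteases CTSD and CTSH changed by -0.89 ± 0.08 and -0.96 ± 0.09, GPX4, the lipid peroxidase, by -0.42 ± 0.06, and the tumour antigen PRAME by -0.69 ± 0.10. AZGP1 and PIP, secreted proteins of apocrine and mammary epithelium, changed by -0.92 ± 0.09 and -0.58 ± 0.09. CDKN2B, the inhibitor p15 of the G1 kinases CDK4 and CDK6, changed by 0.99 ± 0.10. All 7 were called in each line.

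Most tested genes of the NRF2 programme fell. NRF2 is the transcription factor that induces glutathione synthesis, quinone reduction and NADPH production under oxidative stress, and AKR1C enzymes are among its human targets. Of 15 tested members of this list 10 were lower, 0 were higher, and the median log2 fold change was -0.46, where 11.2% of all genes were called lower. All 10 had the same sign in each line, 7 of the 15 differed between lines, and 5 were called in each line. Without the sh225 line 13 were lower, and without the sh120 line 7. For GCLM, the modifier subunit of the enzyme that makes glutamyl-cysteine, the log2 signals were 7.39 and 7.48 in Ctrl, 7.39 and 7.64 in sh120 and 7.49 and 7.5 in sh225 without Dox, and with Dox, in the same order, 6.66 and 6.69, 6.7 and 6.89, and 6.77 and 6.88. Untreated and Dox arrays did not overlap, the change was -0.71 ± 0.08 (adjusted p = 0.00016), and the F-test did not call the lines different (adjusted p = 0.947). ABCC3, an exporter of conjugated drugs and bile acids, changed by -0.87 ± 0.09, and OSGIN1, an oxidative-stress-induced growth inhibitor, by -0.95 ± 0.13. The remaining 6, named after their values were seen, were NQO1 at -0.66, TXNRD1 at -0.35, SRXN1 at -0.52 and, from the pentose phosphate pathway, PGD at -0.48, TALDO1 at -0.31 and TKT at -0.46.

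HMOX1 and AKR1C3, members of the NRF2 list that were not called, had opposite signs in the lines. HMOX1, which degrades heme, had log2 effects of -1.06 in Ctrl, -0.71 in sh120 and 0.58 in sh225. AKR1C3, a relative of AKR1C2 that makes androgens, had effects of -0.95, -0.47 and 0.83. AKR1C3 was below detection with Dox in Ctrl and sh120, falls of at least 1.67-fold and 1.15-fold (adjusted p = 0.00319 and 0.0717). Both differed between lines (adjusted p = 0.00236 and 8.91e-05). The promoter of GCLM is shown because its arrays separated by Dox across all lines. It covers chr1:93909381-93909680 of GRCh38.p14 on the minus strand, 300 bases around the gene start in RefSeq, and the capitals mark the match to TGACNNNGC, the core of the antioxidant response element to which NRF2 binds.
GCLM: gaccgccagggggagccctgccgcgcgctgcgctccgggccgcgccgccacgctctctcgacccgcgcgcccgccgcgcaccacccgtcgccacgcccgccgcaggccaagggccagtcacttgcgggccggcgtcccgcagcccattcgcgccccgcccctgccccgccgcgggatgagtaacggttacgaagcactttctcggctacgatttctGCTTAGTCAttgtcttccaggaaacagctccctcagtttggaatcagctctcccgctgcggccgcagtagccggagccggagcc
Read on both strands, this motif occurred in 3 of the 12 promoters found for tested members of the list (25%), in 15.7% of 7347 promoters of tested genes and in 13.6% of all 27305. Its first letters, TGAC, also begin the AP-1 and CRE motifs that were searched. A match is a description of the letters only.

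Metallothionein genes encode small cysteine-rich proteins that bind zinc and copper, and their list here also held SLC30A1 and MTF1, which are not metallothioneins. Of 7 tested genes of this list 5 were higher, with a median of 0.91, and 1 was lower, where 11.2% of all genes were called each way. The higher ones were MT1X, MT1F, MT1H, MT2A and SLC30A1. MT1M was not called, with an adjusted p of 0.111 and effects of -0.06, 0.18 and 1.19 in Ctrl, sh120 and sh225. For MT1X, the log2 signals were 10.12 and 10.07 in Ctrl, 10.21 and 10.4 in sh120 and 10.33 and 10.51 in sh225 without Dox, and with Dox, in the same order, 10.66 and 10.69, 10.71 and 10.6, and 12.42 and 12.61. MT1X was higher on both Dox arrays of each line and by far the highest in sh225 with Dox. It rose by 0.58 in Ctrl, 0.35 in sh120 and 2.09 in sh225 (shared adjusted p = 0.00581). MT1F rose by 0.63, 0.77 and 1.58. SLC30A1, the zinc exporter of the plasma membrane, changed by 0.91 ± 0.14 (adjusted p = 0.000797), and its effects in the lines, 0.58, 0.79 and 1.35, were not called different by the F-test (adjusted p = 0.0871). MT1X and MT1F did differ (adjusted p = 5.01e-07 and 0.000925), with the largest rise in sh225. MT1H was detected only on the Dox arrays of sh225, a rise of at least 1.85-fold there (adjusted p = 7.37e-06). It passed the detection filter only through these arrays, on which it was highest. MT2A, the fifth called riser, changed by -0.02 in sh120 and so was not shared. The gene that was lower was MTF1 at -0.46, the zinc-sensing factor that induces metallothioneins. Metallothionein genes are near copies of each other, and their probes may read more than 1 of them.

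MTF1 binds metal response elements with the core TGCACNC or TGCGCNC. The promoters of MT1X and SLC30A1 are shown because these 2 genes rose together in the list. They cover chr16:56682220-56682519 on the plus strand and chr1:211579112-211579411 on the minus strand of GRCh38.p14, and capitals mark matches on either strand.
MT1X: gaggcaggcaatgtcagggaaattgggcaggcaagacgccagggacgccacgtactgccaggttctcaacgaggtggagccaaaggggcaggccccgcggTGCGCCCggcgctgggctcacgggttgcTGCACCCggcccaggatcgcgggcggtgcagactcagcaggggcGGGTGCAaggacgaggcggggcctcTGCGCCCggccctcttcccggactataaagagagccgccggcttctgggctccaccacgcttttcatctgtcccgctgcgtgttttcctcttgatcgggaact
SLC30A1: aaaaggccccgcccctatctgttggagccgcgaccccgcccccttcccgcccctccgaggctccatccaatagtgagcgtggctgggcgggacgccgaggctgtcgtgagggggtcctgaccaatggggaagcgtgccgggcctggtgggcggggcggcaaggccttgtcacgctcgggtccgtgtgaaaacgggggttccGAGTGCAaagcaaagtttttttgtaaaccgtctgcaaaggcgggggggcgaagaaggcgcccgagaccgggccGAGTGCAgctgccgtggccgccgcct
The MT1X promoter held 4 matches and that of SLC30A1 held 2. Of the 5 promoters found for tested members, 4 held at least 1 match (80%), against 39.9% of the promoters of tested genes and 29.3% of all promoters. Each of both promoters also held 1 match to the antioxidant motif, and that of GCLM 1 match to the metal motif, which are not capitalised. These motifs were 2 of 9 searched and were chosen for display with the expression results known.

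Immediate early genes are those that serum and stress induce within minutes to hours. Of 21 tested members of this list 9 were higher and 0 lower, with a median of 0.37, where 11.2% of all genes were called each way. In Ctrl alone 1 was called higher and 1 lower. At an unadjusted p under 0.05 in limma the counts were 13 higher and 1 lower in the shared fit, and 6 and 1 in Ctrl alone. The 9 all had the same sign in each line, but only CCN1 was called in each of them, and without the sh120 line 5 members of the list were higher. Of the 9, CCN2 passed the detection filter only through the sh225 Dox arrays, on which it was highest. DUSP1, a MAP kinase phosphatase, had effects of 0.22, 0.85 and 1.12 in Ctrl, sh120 and sh225 and was not called without the sh120 line. JUN, a subunit of AP-1, had effects of 0.43, 0.36 and 1.23. CCN2, connective tissue growth factor, was detected only on the Dox arrays of sh225, a rise of at least 3.55-fold (adjusted p = 6.46e-08), and lost its call without that line, where it changed by 0.32, and without the second untreated or the second Dox array of sh225.

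Of 23 tested growth factors and peptide hormones 6 were higher and 5 lower, with a median of 0.01, where 11.2% of all genes were called each way, and without the sh120 line 3 were higher. STC2, stanniocalcin 2, is a secreted glycoprotein and an oestrogen-responsive gene. For STC2, the log2 signals were 12.43 and 12.41 in Ctrl, 12.74 and 12.7 in sh120 and 12.63 and 12.69 in sh225 without Dox, and with Dox, in the same order, 12.94 and 12.98, 13.59 and 13.64, and 13.39 and 13.6. The change of STC2 was 0.76 ± 0.06 (adjusted p = 9.63e-06), and it was called in each line. VEGFA, the vascular growth factor, changed by 0.76 ± 0.16 and a second probe of it by 0.40, and it was not called without the sh120 line. STC2 and VEGFA are also targets of ATF4, the factor that induces amino acid synthesis and transport when translation is impaired. Of 30 tested ATF4 targets 6 were higher and 0 lower with a median of 0.08, again beside 11.2% of all genes each way, and 9 were higher at an unadjusted p under 0.05. Without the sh120 line 2 were higher. PSPH, an enzyme of serine synthesis, changed by 0.58 ± 0.14, and SLC7A5, a transporter of large amino acids, by 0.33 ± 0.07. PSPH was not called without the sh120 line.

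Of 31 tested hypoxia-inducible and glycolytic genes 7 were higher and 6 lower, with a median of -0.09, where 11.2% of all genes were called each way. Beside ADM and VEGFA, the higher ones included NDRG1, a stress-responsive gene (0.51 ± 0.11), and EGLN3, an oxygen-sensing prolyl hydroxylase, which was undetected on all untreated arrays and rose at least 1.05-fold (adjusted p = 0.0319). EGLN3 was not called without the sh120 or the sh225 line, nor without any 1 of the 4 sh120 arrays, the second Ctrl Dox array or the second untreated or second Dox array of sh225 (adjusted p from 0.0529 to 0.207). The 6 lower ones, named after their values were seen, were BNIP3 at -0.30, a mitophagy receptor, and 5 enzymes of glycolysis, GPI at -0.46, PFKL at -0.47, TPI1 at -0.42, PGAM1 at -0.48 and PKM at -0.42. For the 7 higher genes, leaving out 1 array gave 3 to 4 in some cases: 3 without the first sh120 Dox array, and 4 without either untreated sh120 array or without the second untreated sh225 array. Without the sh120 line 2 were higher and 2 lower.

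Cell-cycle genes were mostly called lower in the shared fit, but not evenly across the lines. Of 36 tested G1/S genes 24 were lower and 0 higher with a median of -0.52, and of 40 tested G2/M genes 30 were lower and 0 higher with a median of -0.66, beside 11.2% of all genes. In Ctrl taken alone limma called 0 of either list, and at an unadjusted p under 0.05 2 G1/S genes were lower and 0 higher and 3 G2/M genes were lower and 2 higher. The lists' medians in Ctrl were -0.03 and -0.10, in sh120 -0.38 and -0.41 and in sh225 -1.03 and -1.50. The F-test called 30 of the G1/S genes and 36 of the G2/M genes as different between lines. Without the sh225 line 7 and 14 genes were lower, and without the sh120 line 6 and 7. The G2/M count was 19 without the second untreated or the second Dox array of sh225.

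For TOP2A, the topoisomerase that untangles replicated DNA, the log2 signals were 11.49 and 11.54 in Ctrl, 11.27 and 11.17 in sh120 and 11.23 and 11.15 in sh225 without Dox, and with Dox, in the same order, 11.39 and 11.37, 10.44 and 10.81, and 9.19 and 8.8. The 4 Ctrl arrays lay from 11.37 to 11.54, and the Dox arrays of sh225 stood lowest. UBE2C, which hands ubiquitin to the anaphase-promoting complex, had effects of -0.11, -0.89 and -1.89 in Ctrl, sh120 and sh225. AURKB, a mitotic kinase, had effects of -0.25, -0.97 and -2.29, and FOXM1, the factor that drives G2/M genes, of -0.19, -0.98 and -1.98. FOXM1 was below detection with Dox in sh225, a fall of at least 2.17-fold there (adjusted p = 2.04e-07). Of the G1/S genes, PCNA, the replication clamp, had effects of -0.13, -0.81 and -1.75, RRM2, a subunit of ribonucleotide reductase, of -0.21, -0.73 and -1.71, and MCM10, a replication initiation factor, of -0.16, -0.57 and -1.76. The probe identities of PCNA and MCM10 are uncertain, and the 2 other PCNA probes gave -0.52 and 0.13. Without the sh120 line TOP2A, UBE2C, FOXM1, PCNA and MCM10 were not called, with adjusted p from 0.0548 to 0.0598.

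**Figure D4:**
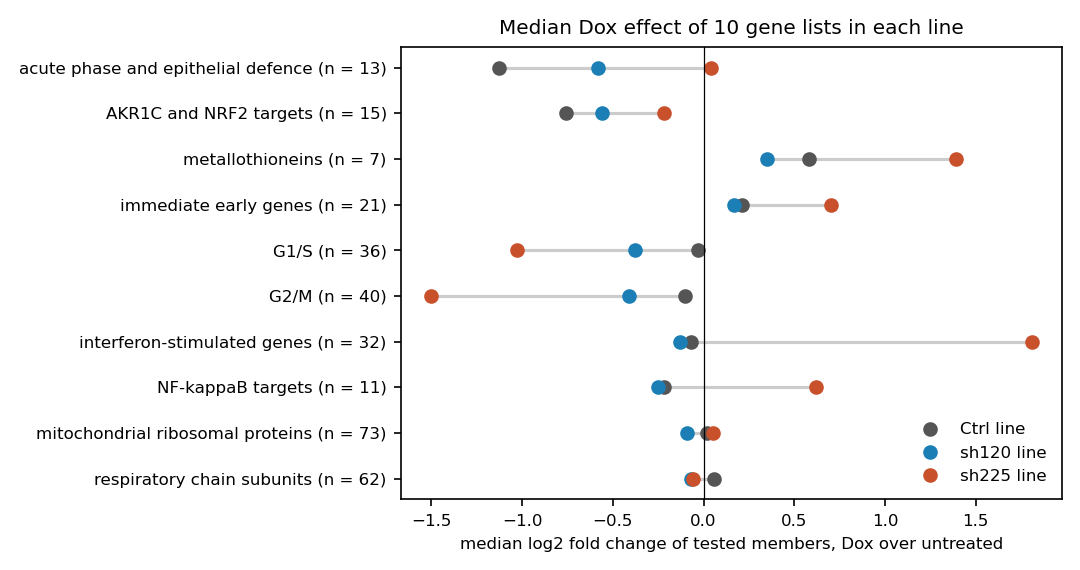
Median log2 fold change of Dox over untreated for the tested members of 10 gene lists in each line. NRF2 targets, the metallothionein list (with SLC30A1 and MTF1) and immediate early genes have medians of the same sign in each line. G1/S and G2/M medians are near 0 in Ctrl and as low as -1.50 in sh225, and interferon-stimulated genes have a median of 1.81 in sh225 and slightly below 0 in the other lines. The interferon list includes genes, such as IFIT2, that passed the detection filter only through the sh225 Dox arrays.

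Core histone genes, which pack DNA into nucleosomes, were 6 higher and 3 lower of 19 tested, where 11.2% of all genes were called each way. Without the sh120 line 1 was lower. H2AC6 changed by 0.61 ± 0.09 and H4C8 by 0.6 ± 0.1, and H4C8 was called in each line. H2AX, the variant phosphorylated at DNA breaks, changed by -0.84 ± 0.15 and H4C3 by -0.68 ± 0.16. Without the sh120 line H4C3 was not called. These genes have many near-identical copies, so their probes may not be specific. H1-10, a replication-independent linker histone, changed by -0.41 ± 0.09 (adjusted p = 0.00863) and was not called without the sh120 line. H1-2 was not shared, and its fitted effect was -0.64 ± 0.41 (adjusted p = 0.276), with opposite signs in sh225 and the other lines. Of 19 tested p53 targets 3 were higher and 1 lower, again beside 11.2% of all genes each way. RRM2B, 1 of the higher ones, passed the detection filter only through the sh225 Dox arrays, on which it was highest. CDKN1A, the p21 inhibitor of cell-cycle kinases, changed by 0.37 ± 0.09 and was not called without the sh225 line, nor was any other of the higher genes.

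Acute phase and epithelial defence genes were lower mainly in Ctrl and sh120, where 7 each of 13 tested genes were called lower, against 3 lower and 2 higher in sh225. Over all genes 2.65%, 15.3% and 34.5% were called in Ctrl, sh120 and sh225 in either direction. Of the 13, 6 were lower and 1 higher in the shared fit, with a median of -0.56, but only ORM1, CFB and SAA1 of the lower ones had the same sign in each line. For CFB, complement factor B of the alternative pathway, the log2 signals were 11.78 and 11.46 in Ctrl, 11.6 and 11.61 in sh120 and 11.72 and 11.54 in sh225 without Dox, and with Dox, in the same order, 10.1 and 10.1, 10.05 and 10.18, and 11.51 and 11.17. The Dox arrays of Ctrl and sh120 were far below the untreated ones, and those of sh225 lay just under them, with a change of -0.29 (adjusted p = 0.0848). SAA1, serum amyloid A, had effects of -2.05, -1.96 and -0.05 and was not called without the sh120 line. ELF3, an epithelial transcription factor, was the riser, with 1.17 in sh225 and 0.06 in Ctrl, and was not called without the sh120 or the sh225 line. The list's medians were -1.13 in Ctrl, -0.58 in sh120 and 0.04 in sh225, and without the sh120 line 2 were lower. SAA genes are near copies of each other.

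Few mitochondrial genes were called, where 11.2% of all genes were called in each direction. Of 73 tested mitochondrial ribosomal proteins 3 were higher and 4 lower with a median of 0.01, and of 62 tested nuclear-encoded respiratory chain subunits 3 were higher and 5 lower with a median of -0.02. MRPL18 changed by -0.51 ± 0.14, mostly in sh225, and was not called without that line. Of 20 genes of mitochondrial protein quality control 2 were higher and 0 lower, and at an unadjusted p under 0.05 4 and 4. These were AFG3L2, a subunit of an inner-membrane protease (0.38 ± 0.11), and TFAM, which packs mitochondrial DNA (0.24 ± 0.07). Neither was called without the sh120 line, the sh225 line, the first untreated array of sh120 or of sh225, or the second sh225 Dox array. PPARGC1A, a coactivator of mitochondrial genes, was detected only on the Dox arrays of sh225.

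Of 28 luminal and steroid receptor genes 3 were higher and 3 lower with a median of -0.01, where 11.2% of all genes were called each way. BCL2, an inhibitor of apoptosis and an oestrogen-responsive gene, rose at least 1.17-fold (adjusted p = 0.00951), and was detected on 1 of 2 Dox arrays in sh120, on both in sh225 and on none in Ctrl. It was not called without the sh120 or the sh225 line. PDZK1, a scaffold of membrane transporters, changed by -0.69 ± 0.13, and SPDEF, a luminal transcription factor, by -0.6 ± 0.14. SPDEF was not called without the sh120 line. Of 8 steroid-conjugating and steroid-converting genes 2 were higher and 2 lower. HSD17B1, which makes oestradiol, changed by 0.63 ± 0.14, and HSD17B8, which oxidises it, by -0.82 ± 0.17. HSD17B1 was not called without the sh120 line. UGT2B7, the other higher gene, passed the detection filter only through the sh225 Dox arrays. Of 23 sterol synthesis genes 4 were lower and 1 higher in the shared fit, and limma called 0 lower without the sh225 line, 2 without its first untreated array and 1 without the second untreated or second Dox array. In sh225 alone 16 of the 23 were called lower and 0 higher, with a median of -0.59, where 34.5% of all genes were called in either direction. The F-test called 13 of the 23 as different between lines. MVD, an enzyme early in cholesterol synthesis, had effects of -1.52 in sh225 and -0.29 and -0.21 in Ctrl and sh120. MVD lost its call without either untreated sh225 array or without the second sh225 Dox array, and EBP, a sterol isomerase, without the second untreated or second Dox array of sh225.

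Few interferon and NF-kappaB genes were called in the shared fit, where 11.2% of all genes were called each way. Of 32 interferon-stimulated genes SAMD9 alone was called higher and 0 were lower, and at an unadjusted p under 0.05 14 were higher. In sh225 29 of the 32 were higher and 1 lower, while in Ctrl and sh120 5 each were lower and 0 and 1 higher. The shares of all genes called in either direction were 2.65% in Ctrl, 15.3% in sh120 and 34.5% in sh225. For IFIT2, an antiviral RNA-binding protein, the log2 signals were 5.56 and 5.47 in Ctrl, 5.52 and 5.59 in sh120 and 5.46 and 5.46 in sh225 without Dox, and with Dox, in the same order, 5.49 and 5.48, 5.57 and 5.59, and 10.93 and 11.06. IFIT2 and OASL were detected only on the Dox arrays of sh225. They passed the detection filter only through these arrays, so the sh225 count includes members kept because they were high there. Without the Ctrl line 9 of the list were called higher, and without the sh225 line 9 were called lower. When the effects were averaged over lines with a separate mean per group, 24 were called higher. Of 11 NF-kappaB targets 1 was higher, NFKB1 at 0.37, and 1 lower, CCL20 at -1.09, both named after their values were seen, and CCL20 was not called without the Ctrl line. In sh225 8 of the 11 were called higher and 0 lower, in Ctrl 5 and in sh120 4 were called lower and 0 higher, and 8 differed between lines. Without the sh225 line 4 were lower in the shared fit. Of 64 cytosolic ribosomal proteins 5 were higher and 0 lower, of 15 heat shock genes 2 and 0, of 8 keratins 2 and 0 and of 11 interferon signalling factors 1 and 0 (limma), again beside 11.2% of all genes each way. At an unadjusted p under 0.05 these became 11 and 1 ribosomal proteins, 3 and 1 heat shock genes, 3 and 0 keratins and 2 and 0 interferon signalling factors. Without the sh120 line the called genes of the cytosolic ribosomal, respiratory chain and metalloproteinase lists and the higher luminal and steroid receptor genes all lost their calls.

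Genes called in all 3 lines with a sign in sh225 opposite to that in Ctrl and sh120 numbered 23, including 4 unnamed probes. They are picked out here after their values were seen. The interferon-inducible IFI27, IFITM3, MX1 and IRF9 fell in Ctrl and sh120 and rose in sh225. IRF9, a subunit of the factor that mediates type I interferon signals, changed by -1.63, -1.25 and 1.68 in Ctrl, sh120 and sh225. For SLPI, a secreted protease inhibitor, the log2 signals were 8.01 and 7.66 in Ctrl, 7.86 and 8 in sh120 and 7.68 and 7.31 in sh225 without Dox, and with Dox, in the same order, 6.3 and 6.38, 6.13 and 6.35, and 8.4 and 8.45. The Dox arrays of SLPI lay below the untreated ones in Ctrl and sh120 and above them in sh225. SOD2, the mitochondrial superoxide dismutase, had effects of -0.8, -0.54 and 0.56. S100A4 and MYH11, a smooth-muscle myosin, went the other way, with 1.02 and 1.37 in Ctrl, 1.09 and 2.56 in sh120 and -1.34 and -0.94 in sh225.

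**Figure D5:**
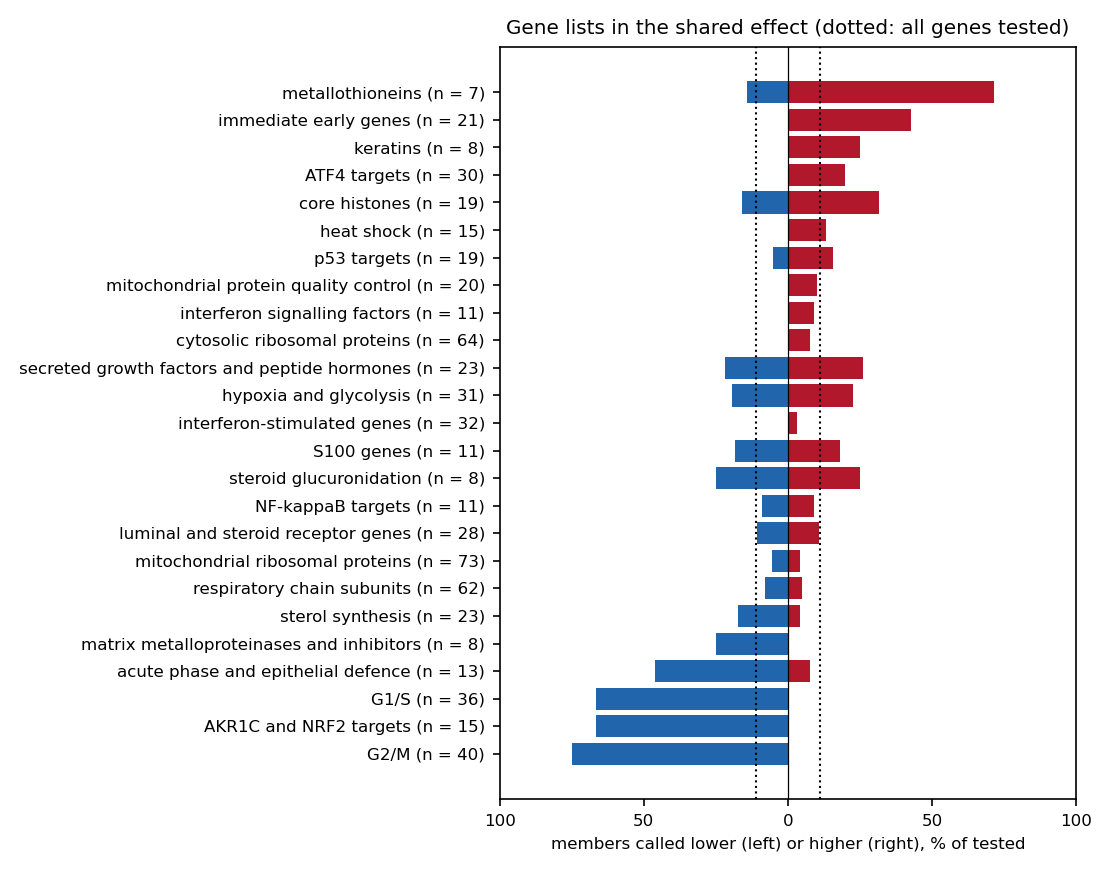
Share of tested members called higher (right) or lower (left) with Dox in the shared fit, for each gene list with at least 5 tested members. Dotted lines mark the 11.2% of all tested genes called in each direction. G2/M, NRF2 and G1/S genes have the longest bars to the left and the metallothionein list (with SLC30A1 and MTF1) to the right, while mitochondrial ribosomal, respiratory chain and interferon-stimulated genes lie within the dotted lines.

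Of 10 tested luminal markers 1 was higher and 1 lower in the shared fit, where 11.2% of all genes were called each way. KRT18, a luminal keratin, was higher (0.4 ± 0.13) and CDH1, the epithelial cadherin, lower (-0.21 ± 0.06), and neither was called without any 1 of the lines or without either untreated sh225 array, among other alternatives. ACTA2, smooth-muscle actin and the 1 tested gene of the basal list, rose by 0.62, 0.55 and 0.49 in Ctrl, sh120 and sh225 and was called in each line. The summed linear signal of the 4 basal markers on the array ran from 684 to 1006 on untreated and from 960 to 1500.4 on Dox arrays, and that of the 10 luminal markers from 42003 to 57780 and from 46891 to 58999. Only ACTA2 of the 4 basal markers was detected, so their sum is its signal plus that of 3 probes not above background. The part of ACTA2-expressing cells in these values was not tested. Of 11 tested S100 genes 2 were higher with the same sign in each line, S100A6 (0.52 ± 0.09) and S100A10 (0.33 ± 0.08), and 2 were lower, beside 11.2% of all genes each way. S100A10 was not called without the Ctrl or the sh120 line. Of 8 tested matrix metalloproteinases and inhibitors 2 were lower and 0 higher, again beside 11.2% of all genes each way. Among the lower ones was MMP9, gelatinase B (-0.66 ± 0.15), which was not called without the sh120 or the sh225 line.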

How the data were processed

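RNA from 12 hairpin arrays, 2 per group, was analysed. The deposited table holds bead intensity summarised per probe before normalization, with a detection p-value per probe, and the authors' normalized values of the same arrays were log2-transformed here for an alternative. GenomeStudio 1.6.0 is named in the submitters' processing notes, whose use is not stated. In R 4.3.3 with limma 3.58.1, neqc (normexp with negative-control parameters inferred from the detection p-values, offset 16, quantile normalization, log2) was applied to all 16 arrays. Probes with a detection p under 0.01 on at least 2 of the 12 arrays were kept, 10914 of 24530, and the brightest probe stood for each symbol, giving 8935 named genes and 467 unnamed probes. A probe detected in a single group passed this filter through the arrays on which it was high. Of the probes, 23266 had 1 symbol and 1264 none, and 23142 matched RefSeq gene identifiers. For 470 items the normalized table interchanges values between probes, with differences over 0.3 on the log2 scale, and their probe identity is uncertain.

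The shared effect was the Dox coefficient beside a term for line, from lmFit and a trended eBayes, with 8 residual degrees of freedom, and line effects came from a mean per group, with 6. P-values were adjusted by Benjamini-Hochberg over all items, with 0.05 as the threshold. Errors are SE. The procedure was tested on simulated data. Named genes are the 15 largest shared rises and falls with arrays separated in each line, up to 4 shared members per gene list by size, and middling genes called in each line. Exceptions are stated. The members and gene lists were chosen with earlier results of these data known. Alternatives covered design, lines, arrays, background, normalization, filter, probe choice and threshold. The 4 arrays of the wild-type and K26 lines have no Dox arm and entered only normalization and 1 alternative. Replicate numbers were checked as pairs by the correlation of deviations from group means.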

Additional observations from a re-analysis of the deposited data

Results flagged for a closer look

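For 55 of the genes followed, the Dox effect differed between the 3 lines by the F-test in limma after Benjamini-Hochberg adjustment. The values here are the largest minus the smallest of the 3 log2 line effects. The effect of largest size was in sh225 for 43, in Ctrl for 9 and in sh120 for 3 of them. OASL, IFIT2, UGT2B7, CCN2, MT1H, MT1M and PPARGC1A were below detection on all arrays but the sh225 Dox arrays, so their values are fitted differences and not bounds. The same holds for AKR1C2, AKR1C3, SAMD9, BRINP1, VTCN1, NMU, PIMREG, MASTL, FOXM1, BUB1 and INSIG1, each undetected in at least 1 arm of a line.

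Several were interferon and defence genes. OASL differed by 5.68, IFIT2 by 5.56, IRF9 by 3.31, SLPI by 2.62 and SAA1 by 2. SAMD9 differed by 1.74, SOD2 by 1.37, CFB by 1.23, ELF3 by 1.11 and ORM1 by 0.87. The linker histone gene H1-2 differed by 3.3 and the core histone gene H4C3 by 1.22.

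Among oxidoreductase, conjugation and transport genes, UGT2B7 differed by 2.47, AKR1C2 by 2.43, AKR1C3 by 1.78, HMOX1 by 1.64, HSD17B8 by 1.26 and ABCC3 by 0.69. The metallothioneins MT1X, MT1H, MT1M and MT1F differed by 1.74, 1.39, 1.25 and 0.95. The sterol genes INSIG1, MVD and EBP differed by 2.29, 1.3 and 0.82.

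Among cell-cycle genes, TOP2A differed by 2.06, AURKB by 2.04, BUB1 by 1.98, PIMREG by 1.94, TACC3 by 1.84, FOXM1 by 1.79 and UBE2C by 1.77. PCNA differed by 1.62, MCM10 by 1.6, RRM2 by 1.49, MASTL by 1.13 and RFC2 by 0.98.

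The rest have varied roles. CCN2 differed by 2.1, RIPPLY3 by 2.09, NMU by 2.06, KIF12 by 1.98, VTCN1 by 1.63, BRINP1 by 1.55, KCNF1 by 1.51, LIN28A by 1.47 and PPP1R1B by 1.35. PPARGC1A differed by 1.2, MRPL18 by 1.05, MMP9 by 1.05, SPDEF by 0.97, DUSP1 by 0.91, JUN by 0.87, CLPSL2 by 0.85, KRT80 by 0.62 and S100A10 by 0.49.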

How the results depend on the processing

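Of 102 genes followed, each tested in 27 or 28 of the 30 alternative settings, 90 were called as reported. Of these, 59 were called in every alternative in which they were tested. Over all genes and settings 115 calls were lost and 38 gained, and 2 values called before or after the change turned sign: H1-2 changed by 0.422 without the sh225 line (adjusted p = 0.0157, limma), and PPP1R1B by 0.014 in the authors' normalized table (adjusted p = 0.777). The causes were not tested. In 8 further cases, over 7 genes called in neither setting, the sign turned: AKR1C3 gave 0.18, SOD2 0.01 and IRF9 0.214 without the Ctrl line, IRF9 0.027 without the sh120 line, and IFIT2 -0.003, OASL -0.005, BUB1 0.075 and INSIG1 0.054 without the sh225 line. The 2103 called genes became 3387 when the 3 Dox effects were averaged from a mean per group over 12 arrays and 3558 over 16 arrays, 559 without the sh120 line and 786 at an adjusted p under 0.01. The first change follows from construction, since line differences then leave the residual. The 1990 shared genes became 559 and 783 under the last 2 of these. Leaving out each array gave 1375 to 2219 called genes, 1338 to 2039 shared genes, 39 to 122 genes called in each line and 967 to 1543 genes that differed between lines. With no filter on dim probes, where more genes are tested, 56 genes were called in each line. Deviations of same-numbered arrays of a line from their group means correlated at r = -0.171 in Ctrl, 0.0255 in sh120 and 0.0355 in sh225. With 2 arrays per group this cannot tell whether such arrays shared a culture or a batch. With the replicate number as a block, 1193 genes were called, 1186 were shared, 63 were called in each line and 1200 differed between lines, and 13 G1/S and 16 G2/M genes were lower. With the Ctrl numbers crossed in the block, 1363 were called and 1354 were shared. Signals near background limit PSG9, PSG6, BRINP1, RAB37 and UGT2B7 to bounds. The same holds in some or all lines for other genes given with bounds, among them SAMD9, CCN2, MT1H, BCL2, EGLN3 and AKR1C2.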
